A study of Mus musculus with 86 samples.

Results

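The WAVE (Wasf) and Arp2/3 actin nucleation RNAs were examined as 10 genes, Wasf1, Wasf2, Actr2, Actr3, Arpc1a, Arpc1b, Arpc2, Arpc3, Arpc4 and Arpc5. They were taken by name from the 53664 genes in the mouse CAD and N2A tables, as paralogs and working partners of Wasf3, an RNA that gained strongly in neurites when TDP-43 was lost. All 10 passed the filter on low counts in every experiment, and the lowest estimated count of any of them in any library was 622. WAVE proteins sit in a complex with CYFIP, NCKAP1, ABI and BRK1 and, when the GTPase RAC1 binds that complex, they switch on Arp2/3. Arp2/3 is the machine that starts a new actin filament from the side of an existing one, and in neurons the branched networks it builds drive growth cones, filopodia and dendritic spines. ACTR2 and ACTR3 (Arp2 and Arp3) mimic the first actins of the new filament, ARPC2 and ARPC4 form the core that clamps the mother filament, and ARPC1, ARPC3 and ARPC5 are the remaining subunits, with ARPC1 made in alternative versions by Arpc1a and Arpc1b.

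RNA was sequenced from soma and neurite fractions of mouse neuronal lines, 3 libraries per group, scraped from either side of a porous membrane after serum withdrawal. CAD is a catecholaminergic line of brain origin and N2A (Neuro-2a) a neuroblastoma line. In the TetOff TDP-43 clones of both lines the endogenous TDP-43 alleles had been cut with CRISPR/Cas9, and the single functional copy was an HA-tagged transgene that doxycycline turns off, so wild-type (minus dox) and knockout (plus dox, 2 µg/mL for 48 h in the labels) cells share the same edited genome and differ in the drug. Loss of TDP-43 and exposure to doxycycline therefore cannot be told apart within a clone. In the remaining experiment CAD cells carried a single integrated, doxycycline-induced copy of HA-tagged wild-type or Q331K TDP-43 (labelled WT or Q331K TDP-43 overexpression) and were kept in the drug for days in both genotypes, Q331K being a substitution found in familial ALS. All lines derive from selected clones or single-site integrants, and neurite fractions pool the processes of a whole culture, so fewer cells and less RNA per cell cannot be told apart. Nothing in the labels says whether the numbered libraries came from separate cultures, so p-values measure the spread between these libraries.

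The CAD and N2A knockout libraries held 22726534 to 32895542 estimated counts and the transgene libraries 9783050 to 15870647. Tardbp, which encodes TDP-43, gave 669, 1002 and 981 TPM in wild-type CAD soma against 115, 134 and 159 TPM in knockout soma, and 756, 880 and 982 against 238, 235 and 263 TPM in N2A soma, so every knockout library lay below every wild-type library. In each group 6 of 8 neuronal markers reached 1 TPM, and Nefl and Nefm did not. The summed TPM of 4 microglial markers stayed at or below 3.36 and that of 4 astrocyte markers at or below 4.55. The summed TPM of 4 oligodendrocyte markers was higher, at 4.96 to 21.1. Fibroblast markers summed to 7.63 to 27.5 TPM in the transgene lines and to at most 4.10 TPM in the TetOff clones. Most of the transgene sum was Dcn, with group means of 8.12 to 23.2 TPM, and Col3a1 was at 0 there. In CAD and N2A neurites the 10 most abundant genes of a library held 41.2 to 73.6% of its TPM, against 15.2 to 43.9% in soma, and the TPM of the median tested gene was lower in neurites by 1.07 to 1.57 on the log2 scale. TPM values were for that reason compared only within a compartment, and neurites were compared with soma only as CPM, counts scaled to library sizes that TMM had adjusted.

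On GRCm38 the WAVE genes lie at chr10:40883475-40938570 (Wasf1) and chr4:133130505-133199756 (Wasf2), and Wasf3 at chr5:146384985-146473615. The Arp2/3 genes lie at chr11:20062304-20112913 (Actr2), chr1:125392905-125435727 (Actr3), chr5:145083830-145108761 (Arpc1a), chr5:145114215-145130705 (Arpc1b), chr1:74236084-74268209 (Arpc2), chr5:122391878-122414184 (Arpc3), chr6:113378115-113390448 (Arpc4) and chr1:152766542-152775597 (Arpc5). Arpc1a and Arpc1b are neighbours on the plus strand. Arpc4 shares its strand and part of its span with Ttll3, and Arpc3 with Gm42829, so the assignment of reads between these pairs is uncertain.

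TDP-43 binds GU-rich RNA. The 3′ UTR stretches below are shown because they hold the most occurrences of 3 such motifs of 5 bases on the transcript strand, the repeat GTGTG, its shifted form TGTGT, and the variant GTATG, within any 30 bases of the longest annotated 3′ UTR (GENCODE vM21, GRCm38). Overlapping occurrences were each counted, and capitals mark the motif bases. Wasf3 and its paralogs Wasf1 and Wasf2 come first, then Arpc4 and Arpc1a, the Arp2/3 genes with the most motifs per kb.

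Wasf3 (chr5:146471798-146471827, plus strand): cagccgcccacatcgcctgctaTGTGTGTG
Wasf1 (chr10:40938415-40938444, plus strand): cagaaccccttcccacttatatatTGTGTG
Wasf2 (chr4:133199610-133199639, plus strand): atttgcttccctgccgggtttatTGTGTGT
Arpc4 (chr6:113389649-113389678, plus strand): catgaggtctgtgctcTGTGTGgGTGTGTG
Arpc1a (chr5:145108695-145108724, plus strand): aaaggggaagggaaGTATGtacatTGTGTG

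The Wasf3 stretch held 4 occurrences, Wasf2 3, Wasf1 2, Arpc4 5 and Arpc1a 3. A run of alternating T and G was thus present in the paralogs as well as in Wasf3. Over the whole 3′ UTR, Wasf3 had 5.25 occurrences per kb in 3238 bases, Wasf1 6.52 in 767 bases and Wasf2 4.12 in 3882 bases. The median of the 13261 tested genes with a 3′ UTR of at least 100 bases was 4.70, and 56.3% of those genes had fewer per kb than Wasf3, 68.7% fewer than Wasf1 and 42.7% fewer than Wasf2. Among the Arp2/3 genes the density ran from 0 in Arpc2 to 20.2 in Arpc1a, with 8.97 in Arpc4, 5.50 in Actr3, 4.03 in Arpc3, 2.72 in Arpc1b, 2.35 in Arpc5 and 1.26 in Actr2. At least 1 motif occurred in 88.5% of all 3′ UTRs, and in 54.4 to 100% of those within 25% of a member's length, beside 9 of the 10 members. With the transcript of highest TPM in wild-type CAD soma in place of the longest 3′ UTR, Arpc1b held none in 214 bases, Arpc4 had 5.71 per kb, and 8 of the 10 members held a motif. The other densities differed by no more than 0.01 per kb. The Arpc4 stretch shown above comes from Arpc4-201. The transcript of highest TPM, Arpc4-203, has only 2 GTGTG in its whole 3′ UTR, fewer than that stretch, and so does not contain it.

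**Figure D1:**
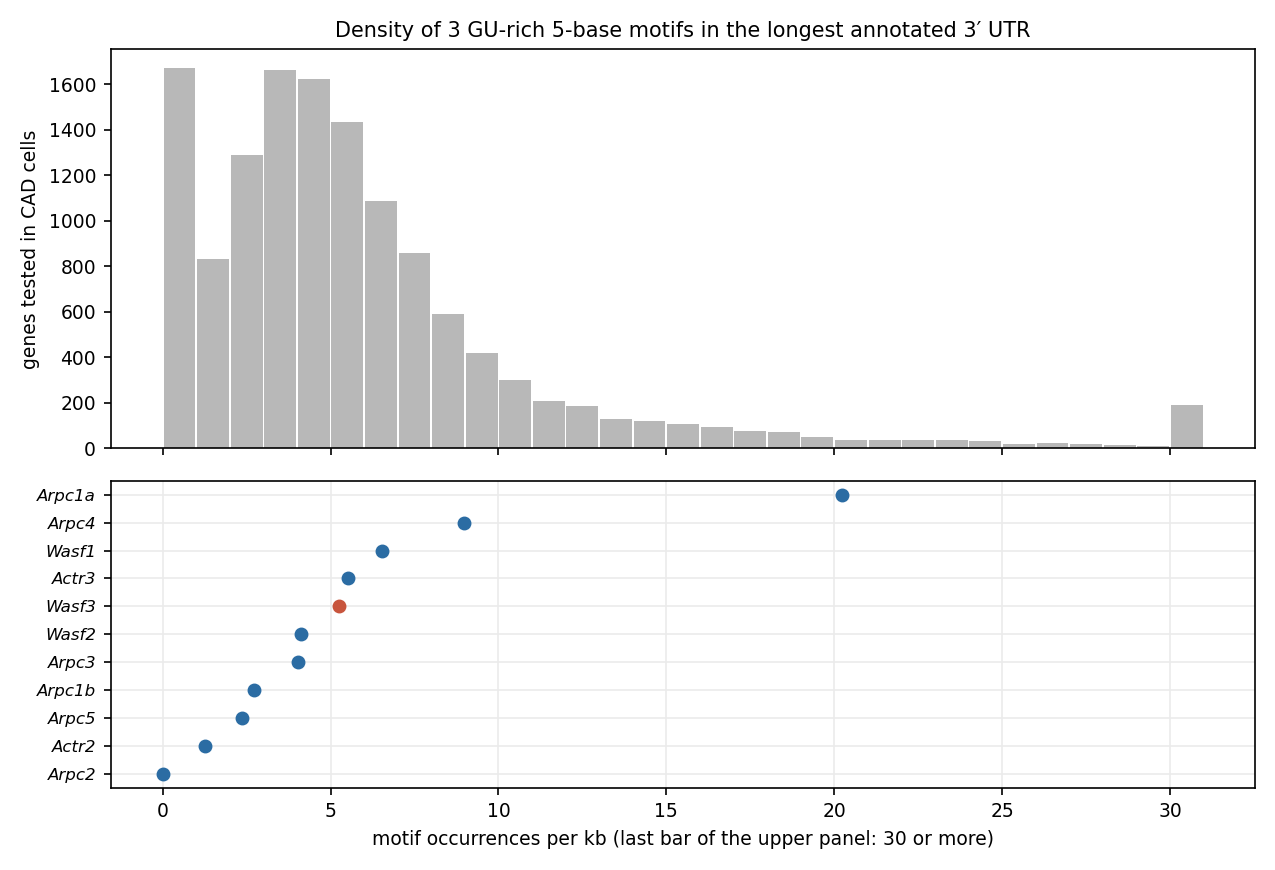
Occurrences per kb of the 3 motifs in the longest annotated 3′ UTR, as a histogram over 13261 genes tested in CAD cells (upper panel, number of genes) and for each of the 10 genes in blue and Wasf3 in red (lower panel). Arpc1a sits at 20.2 per kb, Wasf3 at 5.25 and Arpc2 at 0.

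All 10 RNAs were abundant. In wild-type CAD soma the highest was Arpc2, the filament-clamping core subunit, with 297, 419 and 468 TPM in the 3 libraries, above 98.6% of tested genes. Actr2 followed with 108, 147 and 150 TPM, and Arpc5, Actr3, Arpc4, Arpc1b, Arpc3, Wasf1 and Arpc1a had means from 108 to 65.5 TPM in that order. Arpc2 stood clear of Actr2, while each neighbour from Actr2 down to Arpc1a overlapped the next in its range. Wasf2 was the lowest member with 36.3, 43.0 and 44.5 TPM, below every library's Arpc1a value. Wasf3 was lower than all members with 9.73, 13.5 and 13.1 TPM, above 55.2% of tested genes.

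The order was similar but not identical in the other lines. In wild-type N2A soma Arpc2 was again highest with 193, 238 and 285 TPM, and Arpc5, the subunit that tethers ARPC1 to the complex, was next with 116, 140 and 170 TPM. Actr2 stood eighth there with 72.6, 83.7 and 104 TPM, its range clear of Wasf1 below it at 40.6, 51.5 and 59.2 TPM. In the wild-type transgene soma Arpc2 reached 488, 498 and 492 TPM and Actr2 209, 203 and 205 TPM, with no overlap between Arpc2, Actr2 and Arpc5. Wasf1 exceeded Wasf2 in mean in all 12 groups, and their ranges overlapped only in wild-type N2A soma. These orders are descriptions and were not tested.

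**Figure D2:**
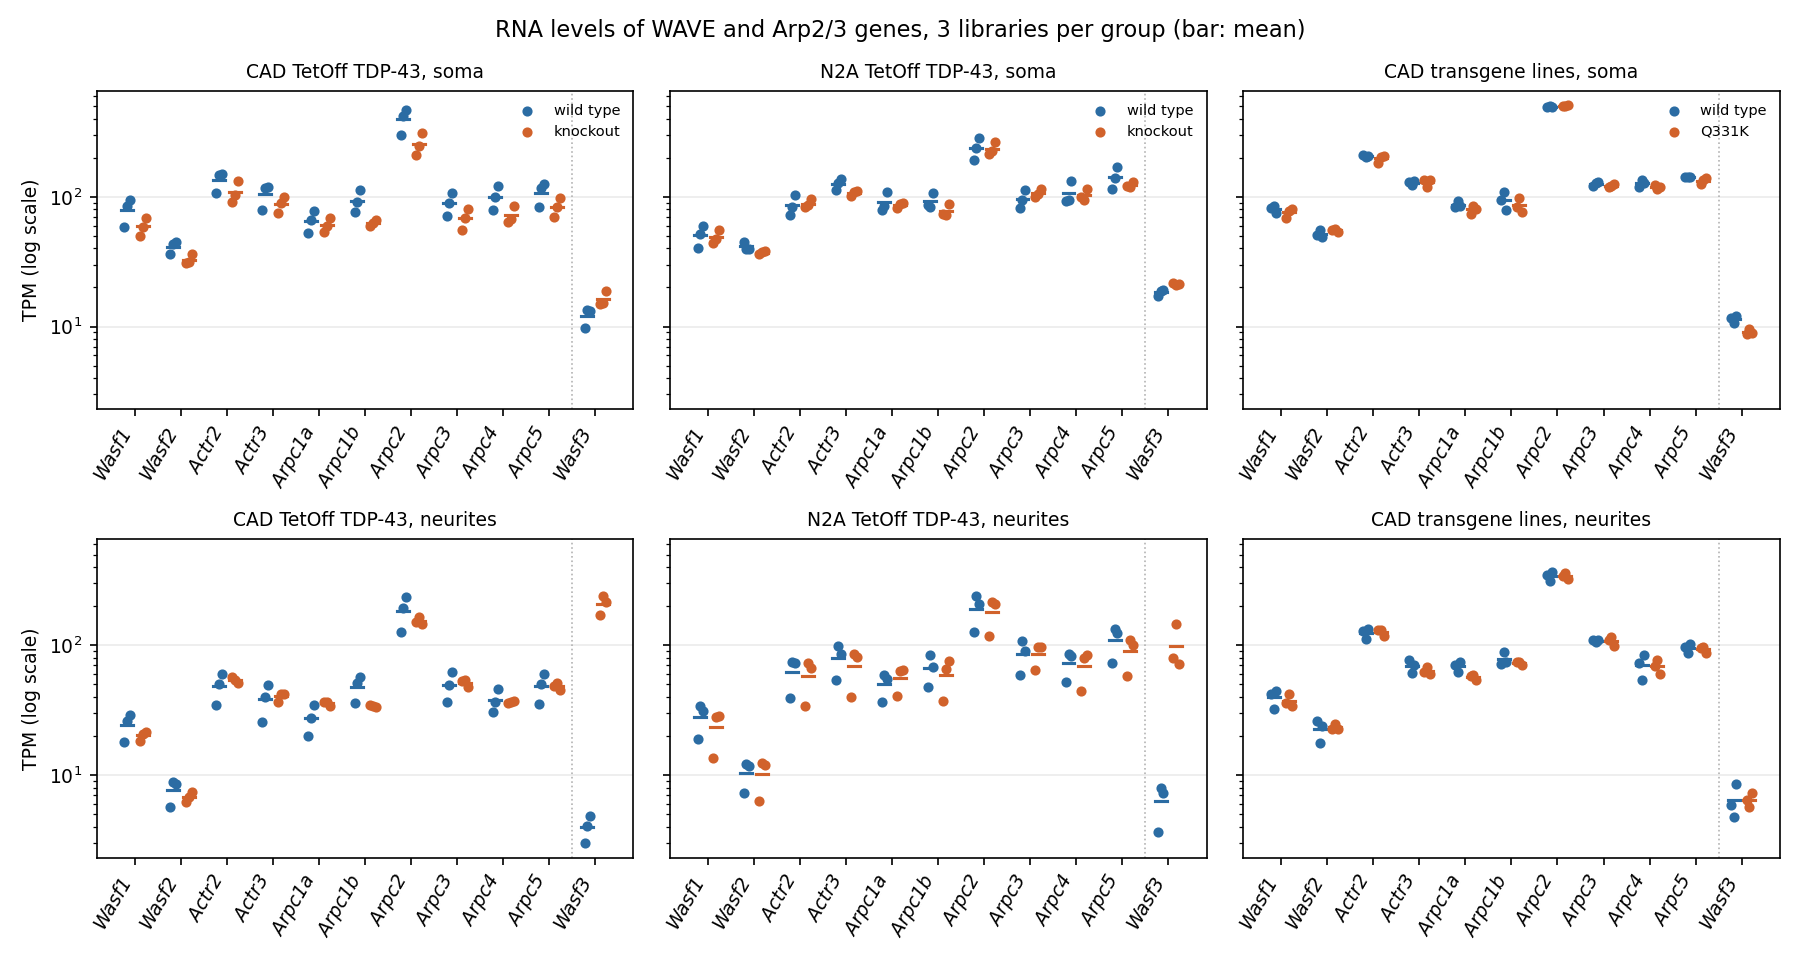
TPM on a log axis for the 10 genes and, right of the dotted line, Wasf3, in soma (upper row) and neurites (lower row), with 1 point per library, a bar at the mean, wild type in blue and knockout or Q331K in orange. Arpc2 is the highest member in every panel, and Wasf3 moves from 3.96 to 209 TPM in CAD neurites, and the points of Wasf1 and Wasf2 stay below 100 TPM.

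The localization ratio (LR), the log2 of neurite over soma abundance, asked where these RNAs sat in wild-type cells. In CAD cells 7 of the 8 Arp2/3 RNAs were enriched in neurites and Wasf2 was depleted (edgeR quasi-likelihood test, Benjamini-Hochberg adjustment over 17343 genes, FDR of 0.01). The 7 of 10 members called higher compare with 23.7% of all tested genes, and the 1 called lower with 17.7%. Arpc3 had the highest LR, with 0.96, 0.93 and 0.77 at the 3 replicate numbers and a fitted value of 0.89 ± 0.07 (SE, adjusted p = 4.39e-08). Arpc1b followed with 0.71, 0.87 and 0.67 and 0.75 ± 0.06 (SE, adjusted p = 5.98e-08). Both were thus above 0 in every pair of libraries.

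Arpc2, Arpc5, Arpc1a, Actr3 and Arpc4 were also higher in neurites, with fitted LRs from 0.65 for Arpc2 to 0.36 for Arpc4. Actr2 had 0.26, 0.22 and 0.27 and did not pass, with 0.25 ± 0.08 (SE, adjusted p = 0.012). Wasf2 lay below 0 throughout, with -0.49, -0.47 and -0.63, and its fitted LR was -0.53 ± 0.07 (SE, adjusted p = 1.83e-05). Wasf1 was distributed on both sides of 0, with 0.19, 0.08 and -0.12 and 0.04 ± 0.07 (SE, adjusted p = 0.63). The actin RNA Actb, which encodes the filament's own subunit, had a fitted LR of 0.31 ± 0.09 (SE, adjusted p = 0.0068) in the same fit.

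In wild-type N2A cells all 8 Arp2/3 RNAs and Wasf1 were enriched in neurites, 9 of 10 members against 32.5% of the 17912 genes tested. Arpc3 was again highest with 1.63, 1.49 and 1.16 and a fitted LR of 1.43 ± 0.10 (SE, adjusted p = 1.45e-08). Arpc5 had 1.48, 1.29 and 1.08 and Arpc2 1.46, 1.26 and 1.02, and the lowest of the Arp2/3 RNAs, Arpc1a, had 1.05, 0.83 and 0.54. Wasf1 had 0.95, 0.65 and 0.53, above 0 in each pair, with 0.70 ± 0.11 (SE, adjusted p = 2.73e-05). Wasf2 had 0.09, -0.07 and -0.12, with -0.03 ± 0.08 (SE, adjusted p = 0.75). With upper-quartile scaling, which lowered the median LR of all N2A genes to -0.33, Wasf2 was called lower and the other 9 calls stood. In that setting 6624 of 17912 genes were called lower. Wasf2 was also called lower with a minimum of 10 counts in every library, at -0.26, beside 4513 of 13310 genes. With counts scaled by transcript length it was called lower too, at -0.39, beside 4387 of 17956 genes. The medians of all genes were 0.01 and -0.04 in these settings, in that order.

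In the CAD line with the wild-type transgene, 5 of 10 members were enriched in neurites against 14.9% of 13940 genes. They were Arpc3 at 0.75 ± 0.08 (SE, adjusted p = 1.62e-06), Arpc1b at 0.73 ± 0.07 (SE, adjusted p = 1.02e-06), Arpc1a at 0.65 ± 0.06 (SE, adjusted p = 6.03e-07), Arpc2 at 0.49 ± 0.07 (SE, adjusted p = 4.08e-05) and Arpc5 at 0.42 ± 0.07 (SE, adjusted p = 9.35e-05). Actr2, Actr3 and Arpc4 had 0.26, 0.09 and 0.15 and did not pass. Wasf1 had -0.05, -0.19 and 0.12 and Wasf2 -0.06, -0.41 and -0.08. Arpc3 had the highest fitted LR of the 10 in all 3 wild-type experiments, and Wasf2 the lowest. Of the nuclear RNAs Malat1, Neat1, Meg3 and Kcnq1ot1, 2 were called lower in neurites in CAD cells and all 4 in N2A cells, with median LRs of -1.49 and -2.10, and none of the 3 tested in the transgene line.

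Whether loss of TDP-43 moved these RNAs as it moved Wasf3 was tested with an interaction term. In CAD cells it did not pass the test for any member, 0 of 10 beside 0.432% of all genes, whereas the LR of Wasf3 rose by 4.92 ± 0.13 (SE, adjusted p = 1.08e-12). At an unadjusted p under 0.05 the edgeR test held 2 of 10 members beside 10.5% of all genes, and DESeq2 called 0 members and 223 genes in all. The estimates of the 10 members ranged from -0.32 to 0.12, with 95% confidence bounds between -0.50 and 0.35. Their median was 0.01.

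Arpc1b lay lowest. Its LR was 0.71, 0.87 and 0.67 in wild-type CAD cells and 0.48, 0.43 and 0.38 in knockout cells, so the genotypes did not overlap, and the change was -0.32 ± 0.09 (SE, adjusted p = 0.12). Wasf1 had 0.19, 0.08 and -0.12 against -0.18, -0.25 and -0.13, close together at their nearest values, and its change was -0.23 ± 0.10 (SE, adjusted p = 0.45). These 2 of 10 members had genotypes that did not overlap, beside 16.1% of all genes. The estimate for Wasf2 was -0.20 (95% CI -0.43 to 0.02), and those of the other Arp2/3 RNAs lay between -0.02 and 0.12.

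In knockout CAD cells taken on their own, all 8 Arp2/3 RNAs, Actr2 included, were enriched in neurites beside 24.6% of all genes, and Wasf2 was the 1 member called lower at -0.73 ± 0.07 (SE, adjusted p = 6.02e-07). The fitted knockout LR of Arpc3 was 0.96 and that of Arpc1b 0.43.

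In N2A cells the LR change did not pass for any member either, 0 of 10 beside 0.100% of all genes, and here all 10 estimates lay below 0, as they did in each alternative setting run. They ranged from -0.57 to -0.16 with a median of -0.43, beside -0.01 for all genes, a median that upper-quartile scaling moved to 0.11. Wasf1 had 0.95, 0.65 and 0.53 in wild-type and 0.22, 0.12 and 0.08 in knockout cells, an estimated change of -0.57 ± 0.15 (SE, adjusted p = 0.039). Wasf2 had 0.09, -0.07 and -0.12 and -0.37, -0.55 and -0.65, an estimated change of -0.50 ± 0.12 (SE, adjusted p = 0.033). Both separated the genotypes completely. Wasf3, in the opposite direction, rose by 3.53 ± 0.26 (SE, adjusted p = 8.45e-06).

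Among the Arp2/3 RNAs of N2A cells, Actr2 had 1.22, 1.06 and 0.96 against 0.63, 0.66 and 0.52, and Arpc5 1.48, 1.29 and 1.08 against 0.87, 0.84 and 0.73. Their estimates were -0.47 ± 0.14 (SE, adjusted p = 0.051) and -0.46 ± 0.12 (SE, adjusted p = 0.040). The genotypes did not overlap for 7 of 10 members, all but Arpc1a, Arpc2 and Arpc3, beside 34.4% of all genes. At an unadjusted p under 0.05 the edgeR test held 9 of 10 members beside 31.2% of all genes.

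The number of N2A calls depended on the threshold, the tool and 1 library. At an FDR of 0.05 edgeR called Wasf1, Wasf2 and Arpc5 lower, 3 of 10 beside 5.33% of all genes. DESeq2 at an FDR of 0.01 called 7 of 10 lower, beside 19.1% of the 8188 genes it gave an adjusted p. Without the library N2A KO soma replicate 1, edgeR at an FDR of 0.01 called Wasf1 and Wasf2 lower, and the count over all genes went from 18 to 1279. The summed nuclear RNAs were 32.1 to 47.4 TPM in wild-type and 52.1 to 70.1 TPM in knockout N2A neurites. In N2A soma they were 217 to 656 and 101 to 482 TPM. Mitochondrially encoded genes held 7.75 to 13.2% of wild-type and 14.5 to 19.2% of knockout N2A soma TPM. In N2A neurites they held 2.37 to 7.65% and 6.52 to 19.8%. The part of either in the lower LRs was not tested. In the knockout cells alone all 8 Arp2/3 RNAs had a positive LR past the threshold, beside 25.3% of all genes, and Wasf2 was called lower, beside 13.1%.

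**Figure D3:**
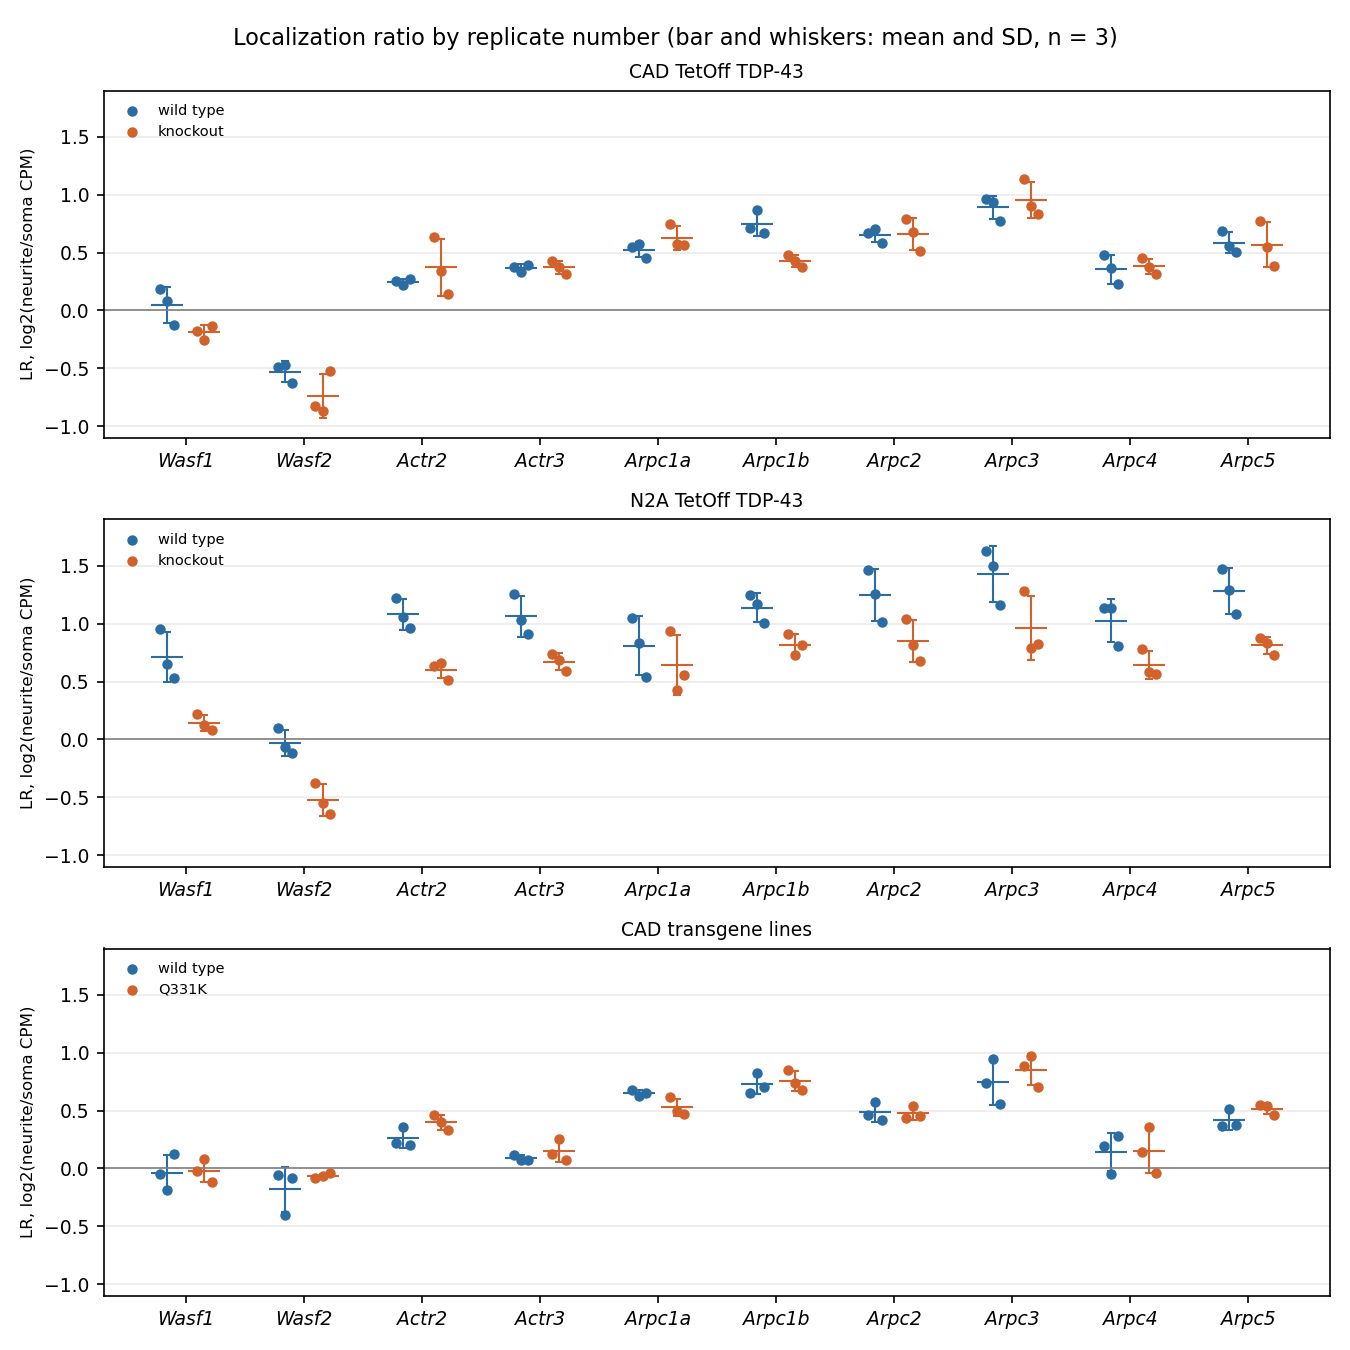
LR (log2 of neurite over soma CPM, same replicate number) for each of the 10 genes in CAD clones, N2A clones and CAD transgene lines, with 1 point per replicate number, a bar and whiskers for the mean and SD of 3, wild type in blue and knockout or Q331K in orange. The Arp2/3 points lie above 0 in CAD and N2A clones, Wasf2 has the lowest points, and the N2A knockout points sit lower than the wild-type points for 7 genes.

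Levels within a compartment were compared next, to see which fraction carried a difference. In CAD soma 3 members fell on knockout, 3 of 10 called lower beside 11.6% of all genes, and none rose. Arpc1b went from 76.3, 91.0 and 112 TPM to 59.4, 62.9 and 65.8 TPM, all knockout libraries below all wild-type libraries, and its fitted log2 difference was -0.47 ± 0.06 (SE, adjusted p = 1.96e-05). Arpc2 went from 297, 419 and 468 to 209, 247 and 308 TPM, overlapping at the highest knockout library, with -0.45 ± 0.07 (SE, adjusted p = 2.14e-04). Arpc4 had -0.27 ± 0.07 (SE, adjusted p = 0.0083), and lost its call in 9 of the 12 fits that left out 1 library, with log2 differences from -0.32 to -0.20 in these.

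In CAD neurites 4 of 10 members were lower beside 13.5% of all genes, and again none was called higher. Arpc1b had 35.9, 50.8 and 57.1 TPM in wild-type and 34.4, 34.0 and 33.5 TPM in knockout neurites, and its log2 difference of -0.78 ± 0.06 (SE, adjusted p = 7.06e-08) was the largest of any member in either line. Wasf1 went from 18.0, 25.9 and 29.2 to 18.4, 20.7 and 21.6 TPM, overlapping on that scale, and differed by -0.47 ± 0.07 (SE, adjusted p = 1.11e-04) in normalized counts. Arpc2 differed by -0.43 ± 0.07 (SE, adjusted p = 2.42e-04) and Wasf2 by -0.33 ± 0.08 (SE, adjusted p = 0.0025). Wasf2 lost its call without CAD KO neurite replicate 1 or 2, at -0.29 and -0.27. Arpc1a, the paralog of Arpc1b, stood alone above 0 with 0.20 ± 0.06 (SE, adjusted p = 0.021). It was called higher, at 0.22, with upper-quartile scaling and with a minimum of 10 counts in every library (edgeR, adjusted p = 0.0053 in each). Wasf3 rose by 5.53 ± 0.11 (SE, adjusted p = 6.01e-15) in the same libraries, from 2.97, 4.06 and 4.85 to 170, 240 and 215 TPM. Actb was lower in both compartments, with -0.47 in soma and -0.61 in neurites on the log2 scale.

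In N2A soma none of the 10 passed, beside 16.1% of all genes. The log2 estimates ran from -0.11 for Actr3, -0.10 for Arpc1b and -0.06 for Arpc5, through 0.07 for Wasf1 and Arpc4, to 0.21 for Wasf2 and 0.29 for Arpc3, the edgeR test held 2 members at an unadjusted p under 0.05 beside 41.9% of all genes, and DESeq2 called Arpc3 higher. Without N2A KO soma replicate 1, Arpc3 and Wasf2 were called higher with 0.44 and 0.37.

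In N2A neurites 4 of 10 members were lower beside 5.10% of all genes. Arpc5 differed by -0.53 ± 0.09 (SE, adjusted p = 5.33e-04), Actr3 by -0.50 ± 0.09 (SE, adjusted p = 6.87e-04), Wasf1 by -0.50 ± 0.11 (SE, adjusted p = 0.0031) and Arpc1b by -0.42 ± 0.10 (SE, adjusted p = 0.0076). Their TPM overlapped between genotypes, replicate 1 being the lowest in both. Arpc5, for example, had 73.2, 135 and 124 TPM in wild-type and 58.1, 111 and 101 TPM in knockout neurites. Wasf1 and Arpc1b both lost their calls without any one of 7 libraries, among them all 3 wild-type neurite libraries, which left 2 of 10 members called. With counts scaled by transcript length 1 member, Arpc5, was called, beside 1425 of 17956 genes in either direction. With DESeq2 8 of 10 were called lower, beside 1385 of 14780 genes. The 4 members lower in N2A neurites and the 4 lower in CAD neurites had Wasf1 and Arpc1b in common.

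**Figure D4:**
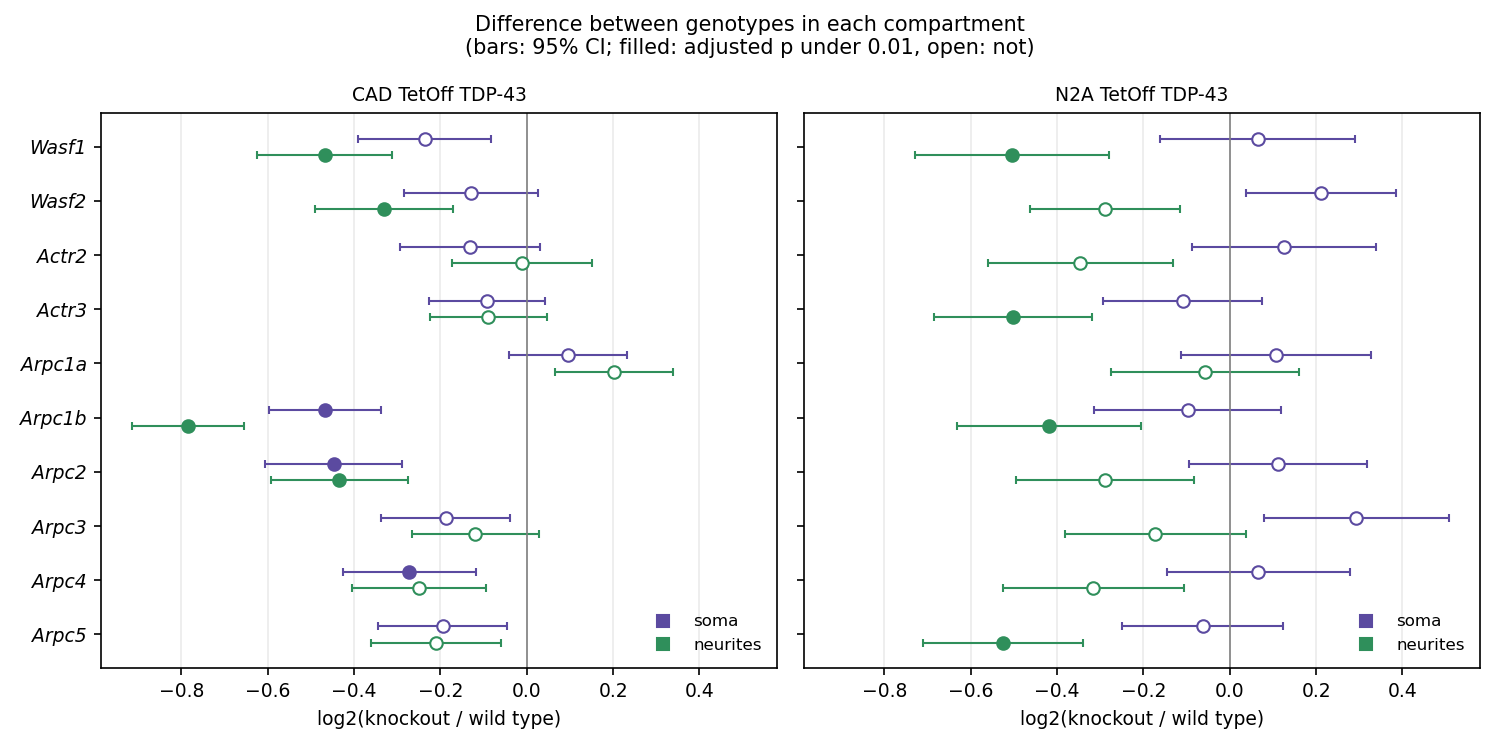
Fitted log2 difference of knockout against wild type in soma (purple) and neurites (green) for the 10 genes in CAD and N2A clones, with 95% confidence intervals, filled where the adjusted p is under 0.01. Arpc1b in CAD neurites lies farthest left at -0.78, and no filled point lies right of 0.

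WAVE complexes are built around a single WAVE protein at a time, and the shares of its paralogs in the summed Wasf1, Wasf2 and Wasf3 TPM were taken within each library. This quantity was chosen after the levels had been seen. It is given without p-values, because an exact permutation test of 3 against 3 libraries cannot fall below 0.1 and so cannot decide. In wild-type CAD neurites Wasf1 held 67.5, 66.8 and 68.5% and Wasf3 11.1, 10.5 and 11.4%. In knockout CAD neurites Wasf1 held 9.46, 7.75 and 8.83% and Wasf3 87.4, 89.7 and 88.1%. The most abundant WAVE RNA of the neurite was thus Wasf1 in wild-type and Wasf3 in knockout cells. In N2A neurites the share of Wasf3 went from 12.2, 14.6 and 14.5% to 80.0, 78.6 and 63.9%, and that of Wasf1 from 63.4, 63.0 and 62.0% to 13.6, 14.9 and 25.5%.

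In soma the shares lay closer together. Wasf3 held 9.29, 9.54 and 8.56% in wild-type and 15.5, 14.5 and 15.1% in knockout CAD soma, and Wasf1 stayed the largest in each of these libraries. In N2A soma Wasf3 held 16.7, 17.1 and 16.2% and 21.4, 19.8 and 18.4%. The transgene lines overlapped in neurites, with 7.93, 8.72 and 10.9% for wild type and 9.81, 7.81 and 11.3% for Q331K. In transgene soma they did not overlap, and the share was lower in Q331K cells, with 8.06, 7.08 and 8.95% for wild type and 6.55, 6.58 and 6.27% for Q331K. The summed TPM of Wasf1 and Wasf2 was 23.7, 34.7 and 37.8 in wild-type and 24.6, 27.5 and 29.0 in knockout CAD neurites, whereas the sum with Wasf3 was 26.7, 38.7 and 42.6 and 195, 268 and 244.

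The proportion of Arpc1a and Arpc1b, the alternative ARPC1 genes, also differed between genotypes. These shares too were chosen after the values were seen and are given without p-values, for the same reason. Arpc1b held 64.2, 64.9 and 62.1% of their summed TPM in wild-type and 48.4, 48.0 and 49.5% in knockout CAD neurites. In CAD soma it held 59.4, 57.9 and 58.8% and 52.5, 51.5 and 48.8%. In N2A neurites the shares were 56.4, 58.7 and 55.4% and 47.8, 50.8 and 54.2%. In N2A soma they were 52.5, 49.4 and 49.7% and 47.5, 45.1 and 49.3%, close together at their nearest values. All these pairs of groups were free of overlap, but no rate of non-overlap over other gene pairs was taken. In the transgene lines wild-type and Q331K neurites overlapped, with 50.7, 58.6 and 49.9% and 56.4, 55.5 and 56.4%.

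**Figure D5:**
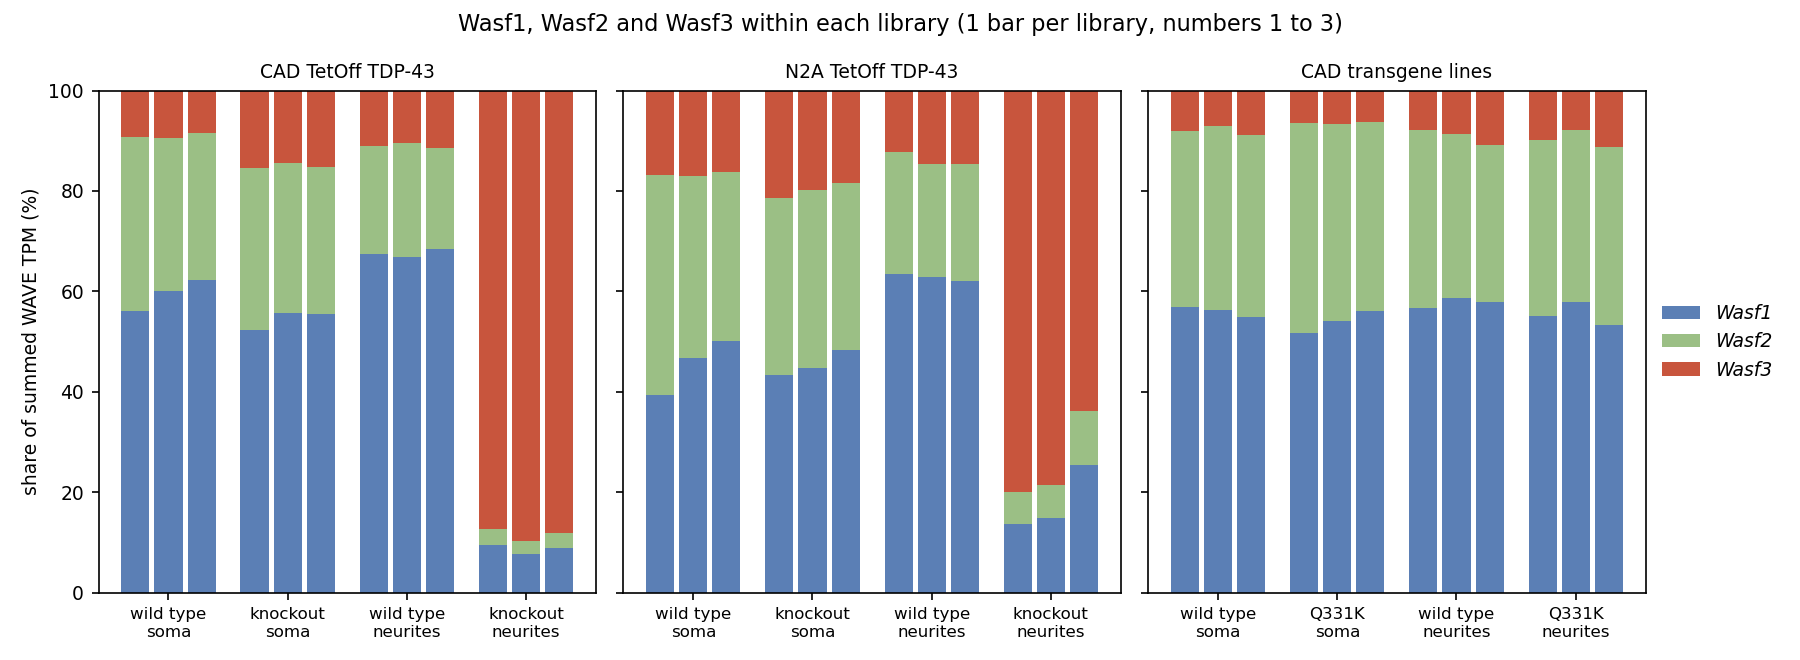
Share of the summed TPM of Wasf1, Wasf2 and Wasf3 held by each paralog, 1 stacked bar per library, in soma and neurites of wild-type and knockout or Q331K cells. Wasf3 holds 87.4 to 89.7% in knockout CAD neurites and at most 14.6% in any wild-type neurite library of the TetOff clones.

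CAD and N2A cells were compared in a fit of all 24 TetOff libraries. In wild-type soma 5 of 10 members were lower in N2A beside 30.0% of 19700 genes. The largest differences were Arpc2 with -0.93 ± 0.10 (SE, adjusted p = 9.12e-09), Wasf1 with -0.83 ± 0.10 (SE, adjusted p = 1.81e-07) and Actr2 with -0.80 ± 0.10 (SE, adjusted p = 2.47e-07), followed by Arpc1b with -0.39 ± 0.09 (SE, adjusted p = 8.91e-04) and Wasf2 with -0.34 ± 0.08 (SE, adjusted p = 0.0011). Upper-quartile scaling moved the median of all genes from 0.07 to 0.27 and left Arpc2, Wasf1 and Actr2 lower, with Arpc1a and Arpc5 called higher. In that setting 4706 of 19700 genes were called lower and 5632 higher. The wild-type LR was higher in N2A for 8 of 10 members, all but Arpc1a and Arpc1b, beside 13.6% of all genes, with differences from 0.50 for Wasf2 to 0.83 for Actr2. Upper-quartile scaling moved the median of all genes from 0.04 to -0.16 and left 6 of these calls, beside 1407 of 19700 genes called higher. Leaving out N2A WT neurite replicate 1 left 4, Actr2, Actr3, Arpc4 and Arpc5. Over the 24 fits that left out 1 library, 1931 to 4020 of all genes were called in either direction. Other single libraries and settings also cost Arpc3 or Wasf2 its call. Line and any difference in handling between the lines cannot be told apart.

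The difference between lines in the LR change passed for 0 of 10 members, beside 0.203% of all genes. All 10 estimates were below 0, from -0.61 to -0.03, although that of Arpc1b was above 0 with DESeq2, with upper-quartile scaling and with a minimum of 10 counts. Of the 10, 6 had an unadjusted p under 0.05 beside 18.5% of all genes, and DESeq2 called 0. The N2A estimates were thus not shown to differ from those of CAD cells. Actr2 came nearest with a difference of -0.61 (95% CI -1.03 to -0.20), and Arpc1b was farthest with -0.03 (95% CI -0.41 to 0.35).

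The Q331K mutant was compared with the wild-type transgene in the same way, and no member passed. The LR change passed for 0 of 10 members, beside 0% of 13940 genes, and 0 members had an unadjusted p under 0.05 beside 4.34% of all genes. DESeq2 called no gene at all for the LR change. The estimates lay between -0.13 and 0.14, and every 95% interval held 0, with bounds between -0.32 and 0.37. Arpc1a alone had LRs that did not overlap, 0.68, 0.63 and 0.65 against 0.61, 0.50 and 0.47, 1 of 10 beside 11.4% of all genes. In soma the log2 differences ran from -0.08 to 0.07 and in neurites from -0.20 for Arpc1a to 0.18 for Wasf2. edgeR called 0 of 10 members beside 0% of genes in either compartment. At an unadjusted p under 0.05 it held 0 members beside 7.14% of genes in soma and 2 beside 9.84% in neurites, and DESeq2 called 0 members. In the Q331K cells alone 6 of 10 members, Actr2 and the 5 named above, were enriched in neurites beside 16.7% of all genes.

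The other genes of the pathway were read from lists of 9 WAVE complex partners with Wasf3 among them, 2 further Arp2/3 subunit genes, other nucleation promoting factors, GTPases, Arp2/3 inhibitors and branch factors, formins, and actin with its monomer and end binders. Of these 7 lists, the LR change in CAD cells passed for 2 genes, beside 0.432% of all genes. They were Wasf3, 1 of 9 WAVE partners, and Washc2, 1 of 11 other nucleation promoting factors, which belongs to the endosomal WASH complex and had -0.67 ± 0.11 (SE, adjusted p = 0.0067). In N2A cells, where 0.100% of all genes passed, Wasf3 did, and so did Pick1, 1 of 10 inhibitors and branch factors, with 0.95 ± 0.14 (SE, adjusted p = 0.0094). None of 8 GTPases, 12 formins or 19 actin-related genes tested in CAD cells changed its LR past the threshold, and none of any list did in the Q331K comparison.

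Neurite enrichment in wild-type cells was shared with other parts of the actin machinery. In CAD cells 16 of 19 actin genes and actin monomer or end binders were enriched and none was depleted, with a median LR of 0.58. Both further Arp2/3 subunit genes, Arpc5l and Actr3b, and 6 of 8 GTPases, Rac1, Cdc42 and Rhoa among them, were enriched as well. Formins, which build unbranched filaments, had 3 of 12 enriched and 5 depleted. Of the 9 WAVE complex partners 1, Brk1, was enriched and 2, Nckap1l and Abi2, were depleted. Names in these counts were chosen after their values were seen. In N2A cells the same counts were 17 of 18 actin-related genes, 6 of 8 GTPases with 1 depleted, 0 of 11 formins with 7 depleted, and 3 of 9 WAVE partners with none depleted. In the wild-type transgene line they were 12 of 19 actin-related genes and 4 of 7 GTPases with none depleted in either list, and 1 of 9 WAVE partners with 2 depleted. Formins went the other way there, with 5 of 12 enriched and none depleted, at a median LR of 0.18. The shares of all genes called higher and lower were 23.7 and 17.7% in CAD cells, 32.5 and 26.6% in N2A cells and 14.9 and 12.6% in the transgene line. These lists were not tested as sets.

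Within a compartment, Actr3b, a paralog of Actr3 whose product can take the place of Arp3, was higher in knockout cells in both compartments of both lines. Its log2 difference was 0.46 ± 0.07 (SE, adjusted p = 1.65e-04) in CAD soma, 0.36 ± 0.07 (SE, adjusted p = 0.0012) in CAD neurites, 0.78 ± 0.08 (SE, adjusted p = 6.24e-06) in N2A soma and 0.63 ± 0.08 (SE, adjusted p = 3.81e-05) in N2A neurites. It passed the test as 1 of 2 further subunit genes in each comparison, and Arpc5l passed in none. Of the 9 WAVE partners, 2 were higher and 3 lower in CAD soma, beside 11.2 and 11.6% of all genes, and 3 higher and 2 lower in CAD neurites, Wasf3 among the higher ones. Cyfip2, which links the complex to RAC1, was higher in CAD soma with 0.58 ± 0.06 (SE, adjusted p = 3.04e-06) and in CAD neurites with 0.29 ± 0.06 (SE, adjusted p = 0.0020), and Brk1, the smallest WAVE complex subunit, was lower in CAD soma with -0.27 ± 0.07 (SE, adjusted p = 0.0070). Abi2 and Abi3, both of the ABI family of complex subunits, were lower in both compartments, with log2 differences of -0.24 and -1.23 in soma and -0.24 and -0.84 in neurites, and Nckap1l was higher in neurites with 0.53. In CAD neurites 7 of 19 actin-related genes were lower and 1 higher, beside 13.5 and 11.8% of all genes, and in N2A neurites 5 of 18 were lower and none higher, beside 5.10 and 6.48%. Actb, Pfn1, Vasp and Tmsb4x were among the lower genes of both lines. The genes named here for a difference within a compartment were chosen after their values were seen.

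Members differed in how many transcripts they were read from. Actr2, Arpc1a, Arpc3 and Arpc5 each had a single transcript holding at least 84.4% of the gene's TPM in every group. Wasf1-202 held 81.8 ± 7.7% (SD, n = 3) of its TPM in wild-type CAD neurites and 83.4 ± 3.5% in knockout neurites. Wasf2-201 held 70.2 ± 7.1% in wild-type CAD soma and 85.6 ± 8.1% in neurites, and Wasf2-202 went from 14.9 ± 3.2% to 3.8 ± 6.6%. Arpc2-203, the main Arpc2 transcript, held 67.6 ± 1.6% in wild-type and 72.8 ± 1.5% in knockout CAD neurites. Arpc4 was split between Arpc4-203 with 46.2 ± 3.3% and Arpc4-204 with 44.5 ± 2.6% in wild-type CAD soma. Arpc1b had 4 transcripts at 10% or more in some group, led by Arpc1b-211 with 52.0 ± 2.8% in wild-type CAD soma, and Actr3 had 3, led by Actr3-202 with 78.7 ± 2.9%. Transcript shares were not tested.

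Across the 36 libraries, with log2 CPM centred within each experiment, the Arp2/3 members moved closely together. Pearson's r over the 36 libraries was 0.76 to 0.97 for pairs among the 8, and highest for Arpc2 with Arpc5. Wasf1 had r of 0.27 to 0.71 with the Arp2/3 members and Wasf2 -0.68 to -0.38. The genes most like Wasf1, among 13231 compared, were Stk24 (r = 0.91), Pacsin2 (0.90) and Reps1 (0.88), those most like Wasf2 were Phf2 (0.93), Tiam1 (0.92) and Arhgap35 (0.92), and those most like the mean of the Arp2/3 members were Vdac1 (0.99), Ubb (0.99) and Esd (0.99). These libraries share the contrast of soma and neurites and their sequencing depth, so the values describe the profile over libraries.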

How the data were processed

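PolyA-selected RNA from soma and neurite fractions was sequenced in 36 libraries. The authors trimmed reads with cutadapt and ran Salmon on the transcriptome. For each transcript the authors deposited its estimated count together with its TPM (abundance per unit of length). The tool versions are not given in the sources used here. Transcripts were summed to genes with GENCODE vM21 (GRCm38), and 0.0737 to 0.129% of the counts in a library had no match. Gene counts were rounded, filtered by group size (filterByExpr), scaled by TMM and tested with edgeR 4.0.16 (quasi-likelihood) in R 4.3.3, with Benjamini-Hochberg adjustment over all tested genes and an FDR of 0.01. Fits included the 12 libraries of each experiment, or all 24 TetOff libraries for the comparison of lines. The LR change was the interaction of compartment and genotype. Values per replicate number divided CPM of the same number, after a small constant was added to each, but the labels do not say that equal numbers share a culture. Correlations between libraries and between genes used log2 CPM with a prior count of 2. Deviations of same-numbered soma and neurite libraries correlated at -0.17 to 0.23. In N2A soma same-numbered libraries of both genotypes correlated at 0.12 to 0.55, number 2 not being best with its own number. The numbers were taken to pair there, which is uncertain. In CAD soma these correlations were 0.09 to 0.48, number 3 not being best with its own number. The main fits held no replicate block in either line, so the p-values above ignore any pairing. Over all genes the block moved the N2A soma calls from 2877 to 3363 and the CAD soma calls from 3950 to 4339. Libraries of a group differed by more than sampling noise. Scripts were checked on simulated data, with LR changes set in genes drawn from those tested. At 1.5-fold, 30.6% were recovered in CAD, 10.4% in N2A and 10% in Q331K. At 2-fold, 58, 54.2 and 46.9% were, so a gene not called may still have changed by that much. Recovery at the levels of the 10 genes was not measured.

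The rule named the 10 genes, with Wasf3, Tardbp and Actb. Members that did not pass are in places given by their range. Genes of the pathway lists were to be named where the LR change passed, and others are marked as chosen after their values were seen. The genes and lists were chosen with earlier results of these data known. The alternatives were DESeq2 1.42.0, upper-quartile scaling, length-scaled counts, other filters, an FDR of 0.05, a replicate block, another transcript for the 3′ UTR and leaving out each library. The depth, 9783050 to 32895542 estimated counts a library, covers counting error only. The labels give doxycycline at 2 µg/mL, and the methods of the study name a lower dose. Overlaps on the same or opposite strand were not resolved beyond the Salmon estimates. The builds in the submitters' processing notes are mm10 and hg38.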

Additional observations from a re-analysis of the deposited data

Results flagged for a closer look

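The wild-type LR differed between the lines for 8 of the 10 genes, each higher in N2A than in CAD cells by the edgeR quasi-likelihood test of the difference itself. The log2 differences were 0.83 for Actr2, 0.70 for Actr3, 0.59 for Arpc2, 0.55 for Arpc3, 0.67 for Arpc4, 0.70 for Arpc5, 0.66 for Wasf1 and 0.50 for Wasf2, with 3 libraries in each group. Arpc2, Arpc3, Wasf1 and Wasf2 lost their calls without N2A WT neurite replicate 1, and Arpc3 and Wasf2 lost theirs with upper-quartile scaling. Without CAD WT neurite replicate 2 or CAD WT soma replicate 3, Arpc3 was not called either. The same held without N2A WT neurite replicate 2 or N2A WT soma replicate 1. With the replicate block Arpc3 lost its call and Arpc1b gained one. Wasf2 also lost its call without N2A WT soma replicate 2 and with length-scaled counts.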

How the results depend on the processing

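At an FDR of 0.05 the number of the 10 genes called was 5 in CAD soma, beside 5669 of all 17343 genes. It was 7 in CAD neurites, beside 6265 of 17343, Arpc1a being called higher there. For the N2A LR change it was 3, beside 1515 of 17912 genes. In N2A soma it was 1, beside 5256 of 17912, and in N2A neurites 8, beside 3769 of 17912. DESeq2 called 7, 1 and 8 for the last 3, beside 1909 of 8188, 4007 of 14780 and 2798 of 14780 genes. The N2A LR change was called for 2 with no filter on low counts, beside 922 of 34673 genes. The N2A neurite difference was called for 1 with length-scaled counts, beside 1425 of 17956 genes. The cause was not tested. Leaving out 1 library gave 8 to 9 calls for the CAD control LR and 0 to 0 for the CAD LR change. It gave 2 to 3 in CAD soma and 3 to 5 in CAD neurites. Over all genes these ranges were 5816 to 7288, 49 to 91, 2946 to 3893 and 3384 to 4408. In N2A cells the ranges for the 10 genes were 9 to 9, 0 to 2, 0 to 2 and 2 to 4. Those over all genes were 9067 to 11184, 4 to 1279, 1564 to 4775 and 1246 to 2205. In the transgene lines the 10 genes had 5 to 6 calls, beside 2903 to 3856, and otherwise 0 to 0, beside 0 to 1. Between lines they had 5 to 5 for the soma level, 4 to 8 for the control LR and 0 to 0 for the LR change. Over all genes these were 8999 to 10384, 1931 to 4020 and 27 to 49. Without N2A KO soma replicate 1, Wasf1 and Wasf2 passed for the N2A LR change. Fits with the replicate block called 8, 0, 4 and 5 in CAD cells, adding Wasf1 in soma and Arpc4 in neurites. Over all 17343 genes they called 7224, 71, 4339 and 4695. In N2A cells they called 9, 0, 0 and 5, beside 10541, 25, 3363 and 2511 of 17912 genes. They called 5, 0, 0 and 0 in the transgene lines, beside 3893 of 13940 genes for the control LR. Between lines they called 5, 8 and 0, beside 10716, 3744 and 33 of 19700 genes. The 8 held Arpc1b in place of Arpc3. Same-numbered soma and neurite libraries correlated over 0.1 in 6 of 18 pairs and best with their own number in 10. These values do not settle whether they share a culture. In N2A soma, where the numbers were taken to pair, the block changed no call of the 10 genes.

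Over all genes the CAD LR change had 75 calls, and 166 at an FDR of 0.05, 223 with DESeq2 and 280 with no filter. The N2A LR change had 18, and 1515, 1909 and 922 in these settings, 145 with upper-quartile scaling, 132 with a minimum of 10 counts and 4 to 1279 with 1 library left out. N2A soma went from 2877 to 5256 and N2A neurites from 2074 to 3769 at an FDR of 0.05, the line difference in control LR from 3623 to 5730 and in LR change from 40 to 134. The line difference in LR change had 330 calls with DESeq2, 225 with no filter, 88 with a minimum of 10 counts and 68 with upper-quartile scaling. Without the filter the Q331K LR change, soma and neurite comparisons had 53, 141 and 103 calls in place of 0. Upper-quartile scaling moved the share of higher calls from 55.0 to 39.1% for the N2A control LR, from 65.8 to 49.7% for the N2A knockout LR, from 68.0 to 49.0% in N2A soma (80.4% with length-scaled counts), from 41.4 to 54.5% for the soma level between lines and from 73.8 to 43.1% for the control LR between lines. For the N2A LR change that share went from 88.9% of 18 calls to 18.0% with DESeq2, and for the CAD LR change from 52.0 to 35.0%. DESeq2 gave 54.3% for the N2A knockout LR and 61.8% for the control LR between lines. Of 3210 values of single genes in other settings, 2160 of them with 1 library left out, 3098 kept direction and side of the threshold or were uncalled throughout, 48 lost and 64 gained a call and 0 turned direction after a call. Among the uncalled values 115 had the other sign. The lowest count of the 10 genes in any library was 622, and each group had 3 libraries. How far depth or the number of libraries limited the calls was not tested.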

Other observations

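The other subunits made from paralog pairs were also read as shares of summed TPM, chosen after their values were seen and given without p-values. No rate of non-overlap over other gene pairs was taken here either. Actr3b held 14.9 ± 2.17% (SD, n = 3 here and below) of the Actr3 and Actr3b sum in wild-type and 18.6 ± 1.70% in knockout CAD soma. In CAD neurites it held 17.1 ± 0.61% and 20.4 ± 1.83%, in N2A soma 8.67 ± 0.88% and 14.0 ± 1.19%, and in N2A neurites 6.86 ± 0.51% and 13.3 ± 1.37%. In all 4 cases the wild-type and knockout libraries did not overlap, whereas wild-type and Q331K transgene libraries did in both compartments.

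Arpc5l held 23.6 ± 0.95% of the Arpc5 and Arpc5l sum in wild-type and 28.0 ± 0.33% in knockout CAD soma, and 26.8 ± 0.55% and 30.2 ± 0.60% in CAD neurites. In N2A cells it held 22.2 ± 1.07% and 24.7 ± 0.38% in soma, and 21.5 ± 0.77% and 26.9 ± 0.70% in neurites. These libraries did not overlap between genotypes either, and those of the transgene lines did. The edgeR test called Arpc5l itself in none of the 4 knockout comparisons, and Actr3b higher in each.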
